A study of Mus musculus with 27 samples.

Results

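A set of 10 genes encoding proneural and neuronal transcription factors was followed in mouse embryonic fibroblasts (MEFs, connective tissue cells grown from embryos) while they were being reprogrammed to induced neurons (iNs). The members were *Neurod1*, *Neurod4*, *Neurog2*, *Sox11*, *Sox4*, *Insm1*, *Myt1*, *St18*, *Scrt1* and *Scrt2*, taken by symbol from a table of 54532 genes, and none belongs to the BAM set of viral genes that the study describes. The 27 libraries came from MEFs of WT, *Per1*-/- and *Per2*-/- mice, all transduced with the BAM genes, which include *Brn2* (*Pou3f2* in the table) and *Myt1l*, and were harvested on days 0, 2 and 4 with 3 replicates for each of the 9 groups. *Per1* and *Per2* encode repressors of the circadian clock. The viral genes sat behind a tetracycline-responsive promoter and were switched on by doxycycline, which was added on day 0 together with a change from serum to serum-free N3 medium, so that day 0 is the start of induction by the methods. A comparison of days therefore covers the induced factors, the medium and time in culture together, which cannot be told apart. The MEFs were bulk cultures from minced embryos without head and heart, and the labels call the replicates biological without saying which embryos each came from.

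Proneural factors of the basic helix-loop-helix (bHLH) family, such as the neurogenins and the NEUROD proteins, switch on neuronal genes in progenitors, pairing with E-proteins to bind the E-box CANNTG. Several non-bHLH factors act with or after them in the developing nervous system. SOX4 and SOX11 are HMG-box activators of the SoxC group, INSM1 is a zinc-finger repressor of newborn neurons and endocrine cells, MYT1 and ST18 belong with MYT1L to a zinc-finger family that recognises AAGTT, and SCRT1 and SCRT2 are Snail-type zinc-finger repressors found in neurons. The question asked of the data was which of these genes became active after the BAM genes were induced, when, and whether the genotype of the MEFs changed this.

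Promoter sequences are shown first because the members fell into genes that rose and genes that stayed near 0, and CAGCTG is one form of the E-box. RefSeq promoters (GRCm38.p6) were matched for 6 of the 10 members, with 9 promoters in all, and *Insm1*, *St18*, *Scrt1* and *Scrt2* are named only. The 250 bases before the start are printed 5′ to 3′ on the gene's strand for 3 genes that rose (*Sox11*, *Sox4* and the promoter at the annotated start of *Myt1*) and 2 that stayed near 0 (*Neurog2* and *Neurod1*), with each CAGCTG in capitals.
Sox11 (chr12:27342719-27342968, minus strand): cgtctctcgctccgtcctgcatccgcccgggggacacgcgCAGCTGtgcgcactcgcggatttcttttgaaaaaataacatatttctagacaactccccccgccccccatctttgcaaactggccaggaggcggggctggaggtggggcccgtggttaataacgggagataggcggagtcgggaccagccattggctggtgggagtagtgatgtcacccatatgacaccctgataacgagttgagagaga
Sox4 (chr13:28953700-28953949, minus strand): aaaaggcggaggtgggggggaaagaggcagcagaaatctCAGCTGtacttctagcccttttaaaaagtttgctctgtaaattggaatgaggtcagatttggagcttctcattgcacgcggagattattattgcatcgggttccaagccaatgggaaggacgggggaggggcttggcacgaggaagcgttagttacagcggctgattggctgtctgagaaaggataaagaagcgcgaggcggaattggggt
Myt1 (chr2:181763082-181763331, plus strand): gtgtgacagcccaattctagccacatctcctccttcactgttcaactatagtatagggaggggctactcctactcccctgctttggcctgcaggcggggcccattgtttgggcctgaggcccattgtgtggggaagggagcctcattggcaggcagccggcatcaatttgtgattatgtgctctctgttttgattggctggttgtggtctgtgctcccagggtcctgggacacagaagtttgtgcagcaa
Neurog2 (chr3:127632886-127633135, plus strand): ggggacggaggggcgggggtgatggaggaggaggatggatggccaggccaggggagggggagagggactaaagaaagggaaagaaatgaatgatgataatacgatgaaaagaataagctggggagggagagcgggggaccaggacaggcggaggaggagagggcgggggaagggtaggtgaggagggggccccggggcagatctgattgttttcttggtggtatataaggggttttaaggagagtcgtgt
Neurod1 (chr2:79456637-79456886, minus strand): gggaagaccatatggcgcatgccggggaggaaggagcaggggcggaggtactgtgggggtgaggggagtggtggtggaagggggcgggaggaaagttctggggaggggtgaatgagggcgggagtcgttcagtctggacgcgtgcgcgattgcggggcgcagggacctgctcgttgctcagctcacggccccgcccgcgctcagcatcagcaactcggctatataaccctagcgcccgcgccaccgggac
CAGCTG, which reads the same on both strands, occurred once before *Sox11*, 210 bases upstream of the RefSeq start, and once before *Sox4*, 211 bases upstream, and in none of the other 7 member promoters. It occurred in 13.0% of the 32851 promoters of the same length. The wider CANNTG, which includes CAGCTG, was in 5 of the 9 member promoters against 66.2% of all, and AAGTT on either strand was in 6 of 9 against 35.3% of all. These 9 include several promoters of *Myt1*, each with AAGTT, and overlapping windows of *Neurod4*, so they do not stand for separate genes. By gene, AAGTT was found before *Myt1*, *Neurod1*, *Neurod4* and *Sox4*, and not before *Sox11* or *Neurog2*. These matches are descriptions of the letters in a short window and say nothing about binding or about more distant elements.

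Each library held between 15815013 and 24264097 fragments assigned to genes (median 19224804). In the MEFs, 14 fibroblast markers summed to between 2500 and 6174 FPKM (fragments per kilobase of exon, scaled to library size). In WT, 16 neuronal markers summed to between 71.1 and 75.7 FPKM on day 0, between 133 and 172 on day 2 and between 178 and 243 on day 4, where *Tubb3* made up 124 ± 24.0 FPKM (SD, n = 3) and *Rbfox3*, a marker of mature neurons, 0.101 ± 0.00925. Macrophage markers (15 genes) summed to between 115 and 669 FPKM on day 2 and between 317 and 1210 FPKM on day 4, with the 3 *Per1*-/- libraries the highest on both days, and their part in any result below was not tested. Since RNA was taken from whole cultures, fewer cells of a type and less RNA per cell cannot be told apart. The *Per2* transcript ran against its label: it was higher in the libraries labelled *Per2*-/- than in WT on day 0 (1.93 ± 0.068 against 0.894 ± 0.0709 FPKM, SD, n = 3; log2 fold change 1.03, limma adjusted p = 0.00114). *Per1* transcript was at 4.11 ± 0.866 FPKM in *Per1*-/- and 5.78 ± 0.479 FPKM in WT on day 0 (limma adjusted p = 0.771). The exons each allele removes are not known from the labels, so neither level checks the loss of protein. The study reports that immunoblots showed PER1 to be lost in its *Per1*-/- MEFs and PER2 in its *Per2*-/- MEFs.

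*Pou3f2* and *Myt1l*, which the study names among the transduced genes, were read on the same days. *Pou3f2* was at 0.008 ± 0.011 FPKM (SD, n = 9) over the 9 libraries of day 0, at 370 ± 171 on day 2 and at 185 ± 96.0 on day 4. *Myt1l* reached only 0.802 ± 0.209 FPKM on day 2 and 1.07 ± 0.334 on day 4. Any reads of a transgene would be counted together with those of the cell's own gene in these rows. The study's methods write the third plasmid as carrying *Myt1*, while its other text names *Myt1l*. Whether viral reads reached the *Myt1l* row, or the *Myt1* row below, was not tested.

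The 10 members spanned a wide range of expression. On day 2, *Sox4* was highest at 104 ± 8.96 FPKM (SD, n = 9), followed by *Sox11* at 27.9 ± 4.44 and *Insm1* at 22.7 ± 5.06, and then at a distance by *St18* at 1.49 ± 0.420, *Myt1* at 1.22 ± 0.477, *Scrt1* at 0.642 ± 0.170 and *Scrt2* at 0.523 ± 0.219. *Neurog2*, *Neurod1* and *Neurod4* were at or under 0.035 FPKM on average. In this order *Sox11* overlapped *Insm1*, and each neighbour from *St18* down overlapped the next, whereas *Sox4* stood clear of *Sox11* and *Insm1* clear of *St18*. Of the members, 6 passed a minimum mean of 0.5 FPKM over the 27 libraries and were tested, and *Neurod1*, *Neurod4*, *Neurog2* and *Scrt2* were not. *Insm1*, *Myt1*, *St18* and *Scrt1* passed that filter through days 2 and 4 alone, so a rise was built into their passing it.

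**Figure D1:**
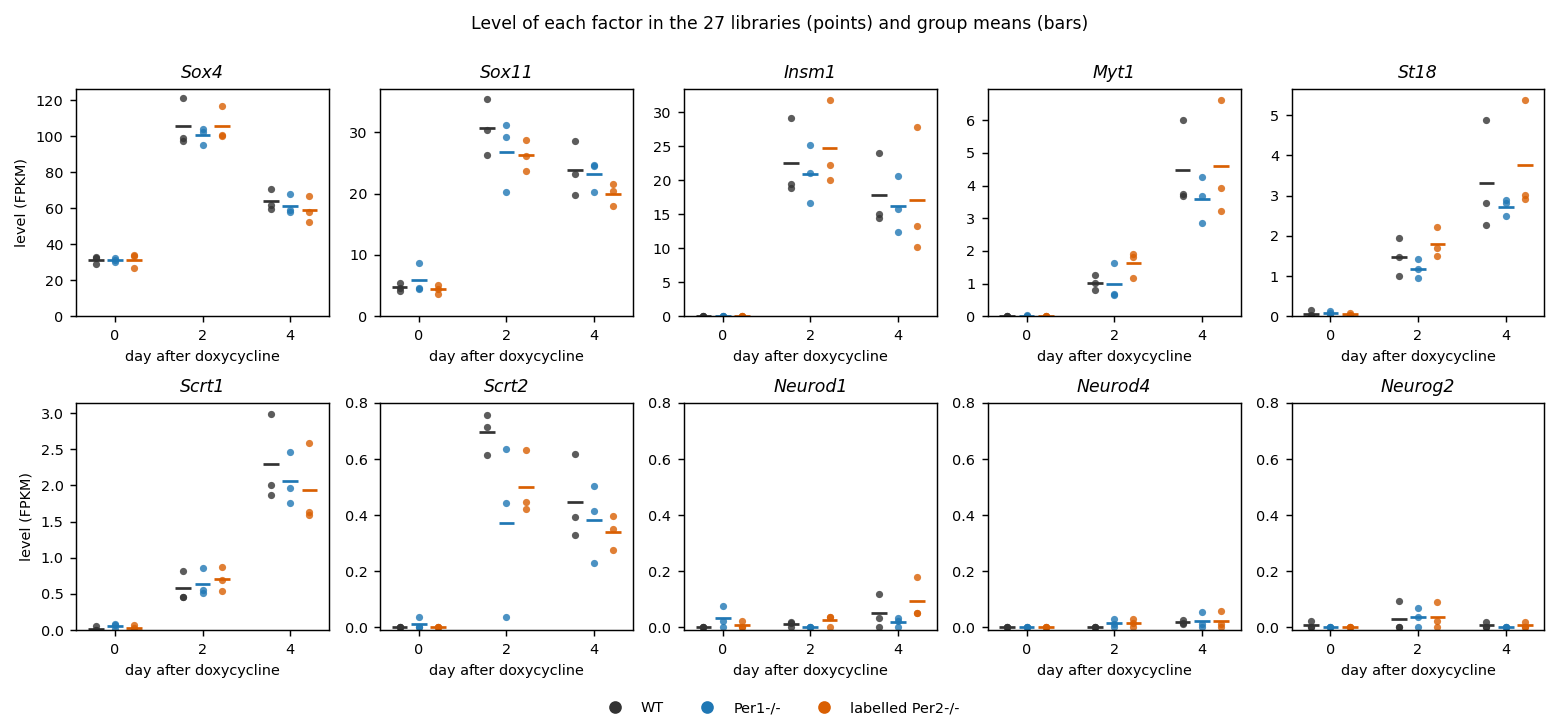
Level of each of the 10 members (FPKM, linear axis, own scale for each gene in the upper row and for *Scrt1*, and 0 to 0.8 for the last 4 genes) against the day after doxycycline, with a point per library and a bar at each mean of 3. *Sox4* peaked on day 2, *Myt1*, *St18* and *Scrt1* were highest on day 4, and *Neurod1*, *Neurod4* and *Neurog2* lay near 0 throughout, at 0.181 FPKM or less.

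The SoxC genes were active before induction and rose further. *Sox4* (GRCm38 chromosome 13, 28948919 to 28953713, minus strand, with exons covering all 4795 bases of the span) was at 32.2, 29.2 and 32.8 FPKM in WT on day 0, at 98.9, 97.6 and 122 on day 2 and at 59.5, 62.1 and 70.6 on day 4. Over all 27 libraries the days did not overlap, with 26.8 to 34.2 FPKM on day 0, 95.2 to 122 on day 2 and 52.6 to 70.6 on day 4. The level thus rose after induction and came part of the way back. In *Per1*-/- it was at 95.2, 104 and 102 FPKM on day 2 and at 58.8, 67.9 and 57.8 on day 4, and where the label was *Per2*-/- at 99.95, 117 and 101 and then at 57.8, 66.7 and 52.6. The log2 fold change from day 0 to day 2 was 1.75 ± 0.108 (SE) in WT, 1.68 ± 0.108 in *Per1*-/- and 1.75 ± 0.108 in the libraries labelled *Per2*-/- (limma adjusted p = 5.67e-11, 1.43e-10 and 7.45e-11). *Sox4* shares its locus with the antisense gene *Gm26735*, which did not exceed 0.0198 FPKM in any library.

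*Sox11* (chromosome 12, 27334264 to 27342574, minus strand, with exons covering all 8311 bases) was lower than *Sox4* in every library. It was at 5.38, 4.63 and 4.18 FPKM in WT on day 0, at 30.4, 26.4 and 35.4 on day 2 and at 23.3, 19.8 and 28.6 on day 4. In *Per1*-/- it was at 4.58, 8.75 and 4.45 FPKM on day 0, at 20.2, 31.1 and 29.2 on day 2 and at 20.3, 24.7 and 24.5 on day 4. Where the label was *Per2*-/- it was at 3.65, 4.53 and 5.09 FPKM, then at 28.7, 23.8 and 26.2, and then at 21.5, 20.4 and 17.9. Day 0 stood clear of both later days, which overlapped each other. The log2 fold change from day 0 to day 2 was 2.67 ± 0.211 (SE) in WT, 2.21 ± 0.211 in *Per1*-/- and 2.55 ± 0.211 in the libraries labelled *Per2*-/- (limma adjusted p = 1.61e-09, 2.59e-08 and 3.82e-09).

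*Insm1* (chromosome 2, 146221921 to 146225020, plus strand, with exons covering all 3100 bases) went from near 0 to a level that overlapped that of *Sox11*. Over the 9 libraries of day 0 only 3 fragments were counted, 1 in each genotype, and on day 2 there were 12877. On day 2 it was at 18.8, 19.5 and 29.2 FPKM in WT, at 21.0, 25.2 and 16.6 in *Per1*-/- and at 19.98, 31.8 and 22.3 in the libraries labelled *Per2*-/-. The day 4 values were 15, 14.4 and 24.0 FPKM in WT, 20.6, 15.8 and 12.4 in *Per1*-/- and 10.3, 27.8 and 13.3 in the libraries labelled *Per2*-/-. WT replicate 3 and replicate 2 of the libraries labelled *Per2*-/- were the highest on both days. The fitted log2 fold change from day 0 to day 2 in WT was 7.72 ± 0.288 (SE, limma adjusted p = 5.07e-14), a size that depends on the pseudocount of 0.1 FPKM. As a ratio of fragments, scaled by the library size that the FPKM values imply, day 2 over day 0 was 3799 over the 3 genotypes. Its exact 95% interval of 1300 to 18420 covers counting error only.

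*Myt1* (chromosome 2, 181763332 to 181827797, plus strand) and *St18* (chromosome 1, 6487231 to 6860940, plus strand) encode the remaining MYT-family zinc-finger proteins, and in every genotype both had their highest mean on day 4. *Myt1* had 5 fragments on day 0, all in *Per1*-/-, against 1578 on day 2 and 5695 on day 4. On day 2 it was at 0.7999, 1.03 and 1.25 FPKM in WT, at 0.668, 1.62 and 0.664 in *Per1*-/- and at 1.83, 1.90 and 1.18 where the label was *Per2*-/-. By day 4 it was at 3.74, 3.69 and 6.01 FPKM in WT, at 3.68, 4.26 and 2.86 in *Per1*-/- and at 3.93, 6.62 and 3.23 in the libraries labelled *Per2*-/-. All 9 libraries of day 4 lay above all 9 of day 2. Against a floor of 3 fragments over the group, WT was at least 144-fold higher on day 2 and at least 648-fold higher on day 4 than on day 0, and the fitted log2 fold change from day 0 to day 2 was 3.48 ± 0.306 in WT (SE, limma adjusted p = 6.66e-09).

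*St18* was detectable at a trace in 8 of the 9 libraries of day 0, at up to 0.163 FPKM. It was at 1.47, 1.00 and 1.94 FPKM in WT on day 2 and at 2.81, 2.28 and 4.87 on day 4. Where the label was *Per2*-/- it was at 2.22, 1.5 and 1.70 FPKM on day 2 and at 2.91, 5.38 and 3.02 on day 4. WT replicate 3 and replicate 2 of the libraries labelled *Per2*-/- were again the highest on day 4. From day 0 to day 2 *St18* rose in WT by a log2 fold change of 3.31 ± 0.341 (SE, limma adjusted p = 5.81e-08), or 23.0-fold in fragments (exact 95% interval 15.4 to 35.8).

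*Scrt1* (chromosome 15, 76516203 to 76522499, minus strand) had reached a smaller share of its day 4 level by day 2 in WT than any detectable member but *Myt1*. Its partner *Scrt2* (chromosome 2, 152081529 to 152095802, plus strand) followed another course. *Scrt1* was at 0.458, 0.462 and 0.823 FPKM in WT on day 2 and at 1.87, 2.01 and 2.99 on day 4, after 5 fragments in all on day 0. In *Per1*-/- it was at 0.519, 0.857 and 0.551 FPKM on day 2 and at 1.96, 2.46 and 1.75 on day 4. Where the label was *Per2*-/- it was at 0.542, 0.867 and 0.699 and then at 1.59, 2.59 and 1.63 FPKM, and in no genotype did the libraries of these days overlap. Its log2 fold change from day 0 to day 2 was 2.51 ± 0.309 in WT (SE, limma adjusted p = 6.41e-07). *Scrt2* had no fragment in WT on day 0, 146 on day 2 and 97 on day 4, so that day 2 was at least 46.5-fold higher than day 0. It was at 0.614, 0.716 and 0.758 FPKM in WT on day 2 and at 0.394, 0.331 and 0.617 on day 4. In *Per1*-/- on day 2, *Scrt2* was at 0.0379 FPKM in replicate 1, which rests on 3 fragments, and at 0.636 and 0.444 in replicates 2 and 3. The same *Per1*-/- library also had the lowest *Sox4*, *Sox11* and *St18* of the 9 libraries of that day. With no filter on low values *Scrt2* was called higher on day 2 than on day 0 in all 3 genotypes (WT log2 fold change 2.99 ± 0.420, SE, limma adjusted p = 9.19e-06). Of 36800 genes, that fit called 3891 higher in WT, 3860 in *Per1*-/- and 3555 in the libraries labelled *Per2*-/-.

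The 3 bHLH members stayed close to 0 on all 3 days. *Neurog2* (chromosome 3, 127633135 to 127635631, plus strand), which drives neurogenesis in the cortex and spinal cord, had 1 fragment over the 9 libraries of day 0, 14 on day 2 and 2 on day 4, and did not exceed 0.0924 FPKM in any. *Neurod4* (chromosome 10, 130268152 to 130280240, minus strand) had 0 fragments on day 0, which allows a level of up to 0.0055 FPKM over that day, 6 on day 2 and 13 on day 4. *Neurod1* (chromosome 2, 79452521 to 79456751, minus strand), a factor of maturing neurons and endocrine cells, had 5, 6 and 28 fragments. Of the 28 on day 4, 11 lay in replicate 1 of the libraries labelled *Per2*-/- and 6 in WT replicate 1. *Neurod1* overlaps *Cerkl* on the same strand, and the genes that overlap it reached up to 0.195 FPKM, above *Neurod1* itself. With no filter, *Neurod1* was called in 1 comparison, day 4 against day 0 in the libraries labelled *Per2*-/- (log2 fold change 0.81 ± 0.252, SE, limma adjusted p = 0.0186, 17 fragments against 1), and *Neurod4* and *Neurog2* in none. In that comparison 4833 of 36800 genes were called higher with no filter.

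Over all genes, the share called higher from day 0 to day 2 (a minimum log2 fold change of 0.58 with a limma adjusted p no higher than 0.05) was 20.8% in WT, 20.8% in *Per1*-/- and 18.7% in the libraries labelled *Per2*-/-, and all 6 tested members were among them in each genotype. From day 0 to day 4 the shares were 22.9%, 22.6% and 21.6%, and the 6 members were called higher again in each. Because 4 of the 6 passed the filter only through the later days, this count is a description of the members and not a test of the group. The median log2 fold change from day 0 to day 2 over the 6 was 2.99 in WT, against -0.01 over all genes tested.

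The interval from day 2 to day 4 divided the members. In WT, 1.62% of genes were called higher and 1.59% lower in that interval. *Myt1* rose by a log2 fold change of 2.00 ± 0.306 in WT, 1.86 ± 0.306 in *Per1*-/- and 1.40 ± 0.306 in the libraries labelled *Per2*-/- (SE; limma adjusted p = 0.00086, 0.00186 and 0.0106). *Scrt1* rose by 1.82 ± 0.309, 1.56 ± 0.309 and 1.33 ± 0.309 (limma adjusted p = 0.00214, 0.00676 and 0.0154), and *Sox4* fell, with log2 fold changes of -0.72 ± 0.108, -0.71 ± 0.108 and -0.84 ± 0.108 (limma adjusted p = 0.000716, 0.000867 and 0.000201). The same 3 members were thus called in each genotype, where 1.38% of genes rose and 1.06% fell in *Per1*-/- and 2.32% rose and 1.74% fell in the libraries labelled *Per2*-/-. *St18* was higher on day 4 than on day 2 in all 3 genotypes without passing the threshold (1.09 ± 0.341, 1.16 ± 0.341 and 0.98 ± 0.341, limma adjusted p = 0.0682, 0.0602 and 0.0833), although the 9 libraries of each day did not overlap. Neither *Insm1* (-0.35 ± 0.288 in WT, limma adjusted p = 0.553) nor *Sox11* (-0.37 ± 0.211, limma adjusted p = 0.349) was called in any genotype.

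**Figure D2:**
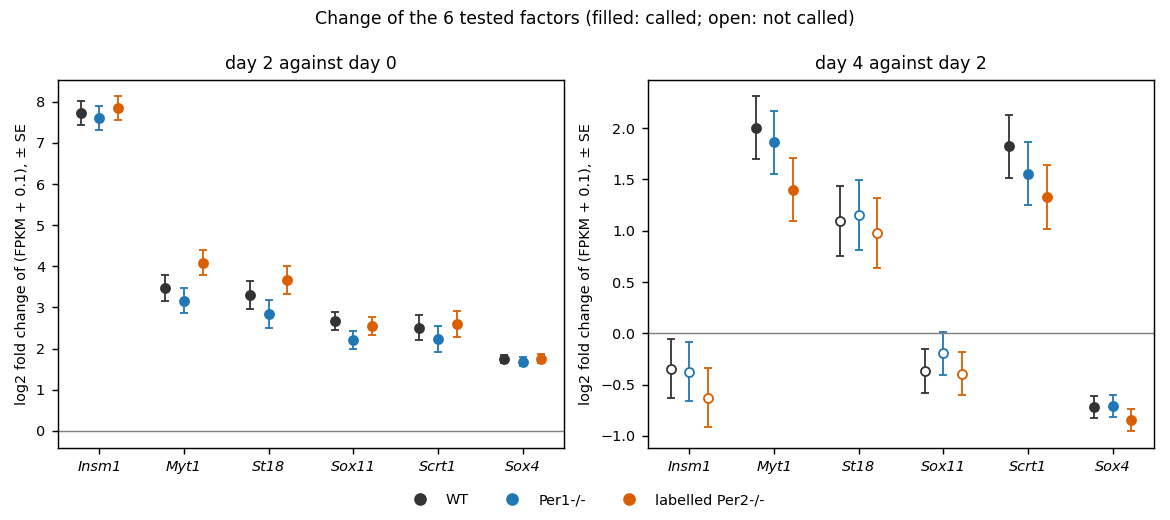
Log2 fold change of FPKM + 0.1 for the 6 tested members from day 0 to day 2 (left) and from day 2 to day 4 (right) in WT, *Per1*-/- and the libraries labelled *Per2*-/-, with bars of 1 SE and filled points where the change was called. All 18 changes on the left were called. On the right only *Myt1*, *Scrt1* and *Sox4* were, with *Sox4* below 0.

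In the libraries labelled *Per2*-/- the calls of the later rise depended on single libraries, but the rise itself remained. With a library left out, the log2 fold change was 1.11 to 1.61 for *Myt1* and 1.11 to 1.47 for *Scrt1*. Without replicate 3 of day 2 the change of *Myt1* from day 2 to day 4 was 1.19 (limma adjusted p = 0.0577), and without replicate 2 of day 4 that of *Scrt1* was 1.11 (limma adjusted p = 0.0504). *Scrt1* was also not called without replicate 1 of day 2 (1.18, limma adjusted p = 0.0653), and *Insm1* was called lower without replicate 2 of day 4 (-1.05, limma adjusted p = 0.0189). With a pseudocount of 0.01 FPKM *Scrt1* was not called in any genotype and *Myt1* not in the libraries labelled *Per2*-/-. *St18* was called in all 3 genotypes with a pseudocount of 1 FPKM (0.78, 0.78 and 0.74, limma adjusted p = 0.0182, 0.0193 and 0.0217) and with voom on the recovered fragments (limma adjusted p = 0.0416, 0.0439 and 0.0447).

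The level reached on day 2 as a share of that on day 4 restates the same values per gene, whether the change was called or not. In WT the day 2 mean was 166% of the day 4 mean for *Sox4*, 156% for *Scrt2*, 129% for *Sox11* and 126% for *Insm1*. The WT libraries of these days overlapped for *Scrt2*, *Sox11* and *Insm1*, and not for *Sox4*. It was 44.4% for *St18*, 25.4% for *Scrt1* and 22.9% for *Myt1*. The transduced gene *Pou3f2* was at 192%, and *Myt1l* at 67.9%. *Myt1* and *Scrt1* thus kept rising after day 2, while the mean level of *Pou3f2* transcripts was lower on day 4 than on day 2. The change of *Pou3f2* from day 2 to day 4 was called in the libraries labelled *Per2*-/- (-1.17 ± 0.317, SE, limma adjusted p = 0.031) and not in WT (-0.93 ± 0.317, limma adjusted p = 0.0939). The call for *Pou3f2* was lost without replicate 2 or 3 of day 2, or without replicate 1 or 3 of day 4, in the libraries with that label (limma adjusted p = 0.0724 to 0.153).

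**Figure D3:**
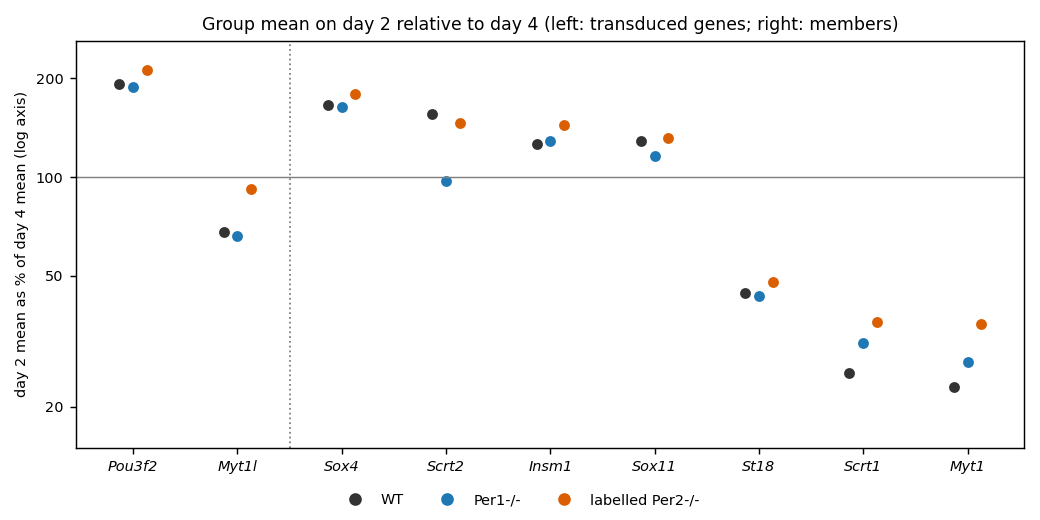
Group mean of day 2 as a percentage of the group mean of day 4 (log axis), with a point for each of WT, *Per1*-/- and the libraries labelled *Per2*-/-, for *Pou3f2* and *Myt1l* (left of the dotted line) and the 7 members above the trace level (right). *St18*, *Scrt1* and *Myt1* lie between 22.9% and 47.9%, and the others of the 7 at 97.4% or more.

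No member was called between genotypes, in a fit that called few genes of any kind there. In *Per1*-/- against WT it called 1 gene on day 2 and 4 genes on day 4. With another method, DESeq2, at the same thresholds, the study reported far more genes that differed in *Per1*-/-. The lack of a call therefore does not exclude a difference. Over the 9 comparisons of genotypes, 3 on each day, and the 4 comparisons of the change since day 0 with that in WT, limma called 0 of the 6 tested members, and voom on the recovered fragments also called 0. The share of all genes called in *Per1*-/- against WT was 0.0134% on day 0, 0.0067% on day 2 and 0.0268% on day 4. Between the libraries labelled *Per2*-/- and WT it was 0.0067%, 0.0268% and 0.0067%, and between both knockout labels 0.0201%, 0.0737% and 0.556%. In the 4 comparisons of changes 0% was called, with 306 to 500 genes at an unadjusted p under 0.05. Below an unadjusted p of 0.05 there was 1 tested member in 1 comparison, *Myt1* on day 2, at 0.985 ± 0.552 FPKM in *Per1*-/- and 1.63 ± 0.396 in the libraries labelled *Per2*-/- (SD, n = 3; log2 fold change -0.76 ± 0.306, SE, limma adjusted p = 0.472).

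*St18* gave the only case among the tested members where the libraries of 2 genotypes did not overlap, and the untested *Neurod1* did the same on day 4. *St18* was at 0.956, 1.17 and 1.42 FPKM in *Per1*-/- against 2.22, 1.5 and 1.70 where the label was *Per2*-/- on day 2, and at 2.504, 2.81 and 2.88 against 2.91, 5.38 and 3.02 on day 4. Of all tested genes, 16.1% did not overlap in that comparison on day 2 and 19.2% on day 4, and limma called neither (log2 fold change -0.57 ± 0.341, adjusted p = 0.727, and -0.40 ± 0.341, adjusted p = 0.691). The standard errors of 0.108 for *Sox4* and 0.211 for *Sox11* bound their genotype differences more closely than those of about 0.3 for the remaining members. *Sox4* differed from WT on day 2 by -0.07 ± 0.108 in *Per1*-/- and by 0.00 ± 0.108 in the libraries labelled *Per2*-/- (limma adjusted p = 0.999 and 1.0).

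Genes of the pathways around the members were compared from day 0 to day 2 in WT, where 20.8% of all tested genes were called higher and 19.7% lower. Beside each list stands the number of its tested genes that averaged under 0.5 FPKM on day 0 and so passed the filter through the later days, which builds in a rise. Of 17 other proneural and neuronal bHLH genes, 3 were tested, of which 1 (*Neurod6*) averaged under 0.5 FPKM on day 0, and the 3 were called higher, led by *Atoh8* (log2 fold change 2.74 ± 0.348, SE, limma adjusted p = 9.78e-07) and *Bhlhe22* (1.70 ± 0.534, limma adjusted p = 0.00936). *Neurod6*, a NEUROD relative of cortical neurons, went another way than the 3 bHLH members. The last of the 3 called, it had 0 fragments on day 0 and 13 on day 2 in WT, and rose from 0.0928 ± 0.0598 FPKM on day 2 to 1.95 ± 0.600 on day 4 (SD, n = 3; log2 fold change 3.43 ± 0.367, SE, limma adjusted p = 2.55e-05). *Neurod2* and *Neurog1* had no fragment in WT on any of the days. Of 7 partners and inhibitors of bHLH factors, none of which averaged under 0.5 FPKM on day 0, 4 were called higher and none lower, namely *Tcf12* and *Tcf4*, which encode E-proteins (0.99 and 0.89, limma adjusted p = 4.16e-09 and 7.51e-06), and *Id2* and *Id1*, which encode inhibitors that bind E-proteins (1.70 and 0.63, limma adjusted p = 1.23e-06 and 0.0211).

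Notch signalling is where proneural factors act on neighbouring cells, through Delta ligands such as DLL1, which activates Notch and target genes such as *Hes1*. Of 19 tested Notch genes, 10 were called higher and 1 lower from day 0 to day 2 in WT, with a median log2 fold change of 0.85 against -0.01 over all genes and with 20.8% of all genes higher and 19.7% lower. Of the 19, 8 averaged under 0.5 FPKM on day 0, *Dll1*, *Dll3* and *Dll4* among them. The ligand genes *Dll3*, *Dll1* and *Dll4* rose by 9.03 ± 0.293, 6.16 ± 0.380 and 5.04 ± 0.277 (SE; limma adjusted p = 3.88e-15, 5.67e-11 and 1.07e-11). *Dll3* reached 74.8 ± 23.8 FPKM on day 2 and 62.9 ± 20.4 on day 4 in WT (SD, n = 3). In *Per1*-/- 11 were called higher and 1 lower, and in the libraries labelled *Per2*-/- 10 and 1. Of all 14932 genes tested, 3101 were called higher and 2811 lower in *Per1*-/-. In the libraries labelled *Per2*-/- 2792 were called higher and 2508 lower. The gene called lower in WT was *Hes1*, a Notch target (-1.03, limma adjusted p = 0.00127). From day 2 to day 4, 1.62% of all genes were called higher and 1.59% lower in WT. In that interval none of the 19 was called higher, which is close to the share over all genes. *Hes6*, which had risen before, was called lower in each genotype (-0.93, -0.95 and -1.11, limma adjusted p = 0.00242, 0.00211 and 0.000609).

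Among family relatives of the members, 3 of 8 tested were called higher and 1 lower from day 0 to day 2 in WT, and 2 of the 8 (*Sox8* and *Snai3*) averaged under 0.5 FPKM on day 0. *Sox8* rose (3.86 ± 0.394, SE, limma adjusted p = 5.29e-08), as did the Snail gene *Snai3* (3.22 ± 0.487, limma adjusted p = 8.74e-06) and *Sox12*, the remaining SoxC gene (0.92, limma adjusted p = 9.55e-06), and *Sox2*, a gene of neural progenitors, fell (-1.24 ± 0.334, limma adjusted p = 0.00319). Of 24 other neuronal transcription factor genes tested, 14 were called higher and 3 lower, against 20.8% and 19.7% of all genes. Those called higher were led by *Lhx3* (4.91 ± 0.383, limma adjusted p = 1.36e-09), *Cbfa2t3* (4.79 ± 0.243, limma adjusted p = 3.71e-12) and *Pou3f1* (4.10 ± 0.306, limma adjusted p = 7.08e-10). Of the 24, 8 averaged under 0.5 FPKM on day 0, namely *Lhx3*, *Cbfa2t3*, *Pou3f1*, *Onecut2*, *Prox1*, *Pou2f2*, *Dlx3* and *Bcl11a*. The 3 called lower were *Dlx2*, *Gata2* and *Gata3* (-0.97, -0.81 and -1.50). From day 2 to day 4, *Lhx3* (1.61 ± 0.383, limma adjusted p = 0.0205) and *Ebf1* (0.95, limma adjusted p = 0.0138) were called higher and none lower. Over all genes in WT, 1.62% were called higher and 1.59% lower in that interval.

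Markers of the cells in which the members are normally found were compared on the same days. Over all genes in WT, 20.8% were called higher and 19.7% lower from day 0 to day 2. From day 2 to day 4 the shares were 1.62% and 1.59%. Of 15 tested neuronal markers, 10 were called higher and 1 lower from day 0 to day 2 in WT. From day 2 to day 4, 8 of them were called higher and none lower. The marker called lower was *Stmn2* (-1.57, limma adjusted p = 0.0124), and 10 of the 15 averaged under 0.5 FPKM on day 0, as did all 6 endocrine markers tested. *Elavl3*, which encodes an RNA-binding protein of young neurons, rose in both intervals (3.66 ± 0.267 and 2.43 ± 0.267, SE, limma adjusted p = 5.46e-10 and 2.83e-05). Of 6 tested endocrine markers, 5 were called higher from day 0 to day 2 (*Gcg*, *Chgb*, *Chga*, *Scg3* and *Pcsk2*), and 5 from day 2 to day 4, with *Scg2* in place of *Gcg*. They include *Chgb*, a secretory granule gene that rose from 0.130 ± 0.0903 to 3.12 ± 0.866 and 16.4 ± 5.37 FPKM in WT (SD, n = 3). *Ins1* and *Pdx1*, which define pancreatic beta cells, had no fragment in WT on any of the days. The summed level of 15 skeletal muscle markers in WT was lower on day 2 (31.0 to 40.4 FPKM) than on day 0 (199.6 to 389.5 FPKM), although 6 of 10 tested were called higher and 2 lower. The 2 called lower were *Acta1* (-4.72, limma adjusted p = 3.55e-08) and *Des* (-2.33, limma adjusted p = 1.36e-05), which encode abundant muscle proteins. Of the remaining lists in that comparison, to be read against 20.8% higher and 19.7% lower over all genes, fibroblast markers had 6 higher and 5 lower of 14, macrophage markers 5 and none of 14, and pericyte markers 1 and 3 of 5. Astrocyte and oligodendrocyte markers had 2 and none of 5, and Schwann cell markers 1 and none of 7. None of 9 genes of cycling cells was called from day 0 to day 2, and 4 were called lower from day 2 to day 4, against 1.59% of all genes. The part of these cells in the members' changes was not tested.

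The genes whose log2 levels ran most like each member over the 27 libraries are given as a description, since all share the step from day 0. *Insm1* was most like *Dll3* (Pearson's r = 0.9985), *Miat* (0.9979) and *Pou3f2* (0.9978). *Myt1* was most like *Ksr2*, *Elavl3* and *Celsr3* (0.9938, 0.9935 and 0.9914), and *Scrt1* like *Elavl3*, *Ksr2* and *Mapk8ip2* (0.9900, 0.9873 and 0.9873), so that these 2 members share *Elavl3* and *Ksr2*. *St18* was most like *Brsk2*, *Srcin1* and *Adgrb2* (0.9868, 0.9828 and 0.9825). *Sox11* was most like *Kcnc4*, *Shd* and *Kcnt1* (0.9862, 0.9822 and 0.9819), *Sox4* like *Col25a1*, *Tfdp2* and *Tmem131l* (0.9860, 0.9836 and 0.9816), and *Scrt2* like *Sox11* (0.9482), *Fgf12* and *E330009J07Rik*. For *Neurod1*, *Neurod4* and *Neurog2* no gene exceeded 0.79, and with at most 39 fragments each these likenesses are not read.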

How the data were processed

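RNA-seq libraries (poly-A selected, paired-end, strand not kept) were made from 27 cultures in 9 groups of 3. According to the study's methods and the labels, the authors cleaned the reads with their own scripts, used HISAT2 2.0.5 against GRCm38 (mm10) and featureCounts 1.5.0-p3, and deposited FPKM values, which are relative to gene length and library size. FPKM times gene length came out as whole fragments for 100% of values (tolerance 0.01 fragments), which gave depths of 15815013 to 24264097 fragments. The library size implied by the FPKM values was 0.865 to 0.925 of the fragments counted on day 0. On days 2 and 4 it was 1.03 to 1.10 of them. Comparisons of days and ratios of fragments carry this scaling. Intervals and floors cover counting error only.

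Here log2(FPKM + 0.1) was fitted for 14932 genes averaging 0.5 FPKM or more over the 27 libraries with limma 3.58.1 (R 4.3.3; 9 groups, moderated variance with a mean trend), in 22 comparisons. Benjamini-Hochberg adjustment ran over all genes tested. Called genes had an adjusted p no higher than 0.05 with a minimum log2 fold change of 0.58. Fold changes on this scale understate those of low genes. The fit was tested on simulated data. A ratio against a group without fragments used a floor of 3 fragments over the group. A planned relation and its alternatives are not reported here. Named genes were the 10 members, *Pou3f2*, *Myt1l*, *Per1*, *Per2*, the 3 called genes of each list with the largest change from day 0 to day 2 in WT, and the 3 genes most like each member; others named were chosen after their values were seen. The members and gene lists were chosen with earlier results of these data known. Replicates differed by more than sampling noise (chi-square per degree of freedom 10.2 to 74.9 over 27 pairs), so each was counted as its own sample. Alternatives were pseudocounts of 1 and 0.01 FPKM, a minimum of 1 FPKM or none, TPM, recomputed size factors, voom on the fragments, a replicate block, a fit of only the groups compared, no minimum fold change, and leaving out each library in turn.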

Additional observations from a re-analysis of the deposited data

How the results depend on the processing

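All 6 tested members were called higher on days 2 and 4 than on day 0 in each genotype under every alternative in which all 6 were tested, and no alternative called a member between genotypes. *Insm1*, *Myt1*, *St18* and *Scrt1* passed the filter only through days 2 and 4. Their rise from day 0 was thus built in, and the agreement of the alternatives does not test it. With a pseudocount of 0.01 FPKM the members called from day 2 to day 4 in the libraries labelled *Per2*-/- went from 3 to 1, and leaving out single libraries gave 2 to 3; the cause was not tested. A fit of only the groups compared lost the call of *Myt1* from day 2 to day 4 in those libraries (limma adjusted p = 0.0567) and that of *Pou3f2* (limma adjusted p = 0.2), and called *St18* in *Per1*-/- (limma adjusted p = 0.0316). The uncalled change of *Myt1l* from day 2 to day 4 in the libraries labelled *Per2*-/- turned from 0.04 to -0.033 with TPM, and ranged from -0.27 to 0.24 when a library was left out. Deviations of same-numbered libraries of a genotype were correlated over 0.1 in 14 of 27 pairs across days (median 0.127), against 0 of 54 for differently numbered ones (median -0.062, highest 0.088), a hint from the data that the numbers are linked within a genotype. Deviations within a group sum to 0, so positive values for same-numbered pairs push the others below 0. The 2 counts are thus not independent. Across genotypes on a day the count over 0.1 was 3 of 27 for same-numbered libraries (median -0.036, highest 0.192). Differently numbered ones gave 10 of 54 (median 0.013, highest 0.3375), so the numbers showed no link there. Since not every pair exceeded 0.1 and no label ties the numbers, they were not taken as pairs. With a replicate block the tested members called from day 2 to day 4 in WT were 3, as without it, and genes called rose from 479 to 829; among the tested members, *Pou3f2* and *Myt1l*, the block changed the call between days only for *Pou3f2* from day 2 to day 4 in WT (limma adjusted p = 0.0122) and in *Per1*-/- (limma adjusted p = 0.0143). The log2 fold change of *Sox4* from day 0 to day 2 in WT, 1.75 in the main fit, ranged from 1.72 to 2.18 over the alternatives. That of *Sox11* ranged from 2.465 to 3.099. The sizes for members near 0 on day 0 were far less certain. They ranged from 4.52 to 10.87 for *Insm1*, 1.014 to 8.152 for *Myt1*, 1.198 to 5.618 for *St18* and 0.626 to 5.451 for *Scrt1*. Depth limits *Neurod1*, *Neurod4*, *Neurog2* and *Scrt2*, which rest on 17 to 573 fragments over all libraries.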
